A study of Mus musculus with 18 samples.

Results

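The accessible chromatin at 10 interferon-stimulated antiviral genes of the mouse was examined: Ifit1, Ifit2, Ifit3, Ifit3b, Rsad2, Cmpk2, Isg15, Mx1, Mx2 and Oasl1. Around each gene, a window was set that held the gene body and 50 kb to both sides of its most upstream start site in GENCODE M21. The windows contained 136 of 82391 reference peaks, 162 of 84660 summits and 70 of 59617 extended regions. They joined into 5 loci, because the 4 Ifit genes, Rsad2 and Cmpk2, and Mx1 and Mx2 are neighbours. In total, 43 peaks lay in the window of more than 1 gene, so that counts of neighbouring genes are not independent.

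The data came from ATAC-seq, in which the Tn5 transposase cuts exposed DNA. The cells were BMDMs, macrophages grown in culture from the bone marrow of wild type mice, and every group had 1 h of DMSO, the vehicle. After this the cells stayed untreated or were given lipopolysaccharide (LPS) or IL-4 at 10 ng/mL for 30 min, 1 h, 2 h or 4 h, which made 9 groups of 2 libraries (1 untreated, 4 LPS and 4 IL-4). All groups share this genotype, and the methods name male mice. The deposited lists were pooled over all 18 libraries, so values per sample, the response to LPS or IL-4 and the error between replicates were not analysed here. The depth is unknown, and all values describe a single catalog with no test. As a check of the cell type, markers were looked up. All 8 macrophage markers had a start site peak (a reference peak at most 1000 bp from an annotated start), among them Csf1r, Adgre1 and Cd68. Of all protein-coding genes, 56.5% had a peak of this kind. Of 10 markers of other cell types, 1 had such a peak (Col1a1, score 613).

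In macrophages, LPS triggers the Toll-like receptor TLR4, whose adaptor TRIF leads to the activation of the transcription factor IRF3 and the secretion of interferon beta. Interferon beta then acts on the same and neighbouring cells through its receptor and the kinases JAK1 and TYK2. These activate ISGF3, a transcription factor complex that binds the interferon-stimulated response element (ISRE). The ISRE holds GAAA repeats separated by a short spacer, and IRF3 and IRF7 recognise related sites. The proteins encoded by these target genes act against viruses in different ways. Ifit proteins bind viral RNA or take part in complexes that do so. Mx proteins are dynamin-like GTPases, viperin (encoded by Rsad2) and Cmpk2 act on nucleotides, and Isg15 is a ubiquitin-like modifier.

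The sequences with which the start site peaks can be compared are shown first. The ISRE core was searched as GAAANNGAAA on both strands, with overlapping matches counted. Capitals mark each match, and on the opposite strand it reads TTTCNNTTTC. Genes are shown on their own strand up to the last base before the principal start site (the start of the best supported coding transcript), or up to 10 bases past the last core for Ifit3 and Ifit3b. The stretches lie at chr19:34640775-34640870 (Ifit1, plus strand), chr19:34583363-34583426 (Ifit3, plus), chr19:34607759-34607822 (Ifit3b, plus), chr12:26456453-26456582 (Rsad2, minus) and chr4:156200819-156200906 (Isg15, minus) of mm10.
Ifit1: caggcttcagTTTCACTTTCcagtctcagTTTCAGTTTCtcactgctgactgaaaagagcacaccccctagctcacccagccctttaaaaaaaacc
Ifit3: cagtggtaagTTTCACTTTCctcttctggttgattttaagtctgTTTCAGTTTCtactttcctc
Ifit3b: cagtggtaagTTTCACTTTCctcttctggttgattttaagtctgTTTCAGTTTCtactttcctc
Rsad2: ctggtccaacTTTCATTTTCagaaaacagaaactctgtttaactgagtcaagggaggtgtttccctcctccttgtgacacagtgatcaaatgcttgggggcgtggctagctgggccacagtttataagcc
Isg15: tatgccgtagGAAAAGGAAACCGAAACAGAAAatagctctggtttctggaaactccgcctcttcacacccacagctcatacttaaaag

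Ifit1, Ifit3 and Ifit3b each had the same pair of letter strings, TTTCACTTTC followed by TTTCAGTTTC, with a shorter distance between them in Ifit1. The 64 bases shown for Ifit3 and Ifit3b were identical in 64 of 64 positions. In Isg15, 3 matches overlapped in a single run and pointed the other way. Rsad2 had 1 match.

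A second set of stretches lay away from the principal start sites and is given on the plus strand, because the genes next to them had no core at their own start or had further cores. They lie at chr16:97535134-97535163 (before the most upstream start of Mx2), chr19:34553665-34553700 (intron of Ifit2), chr12:26439477-26439537 (past the end of Rsad2) and chr12:26460222-26460282 (between Rsad2 and Cmpk2).
Mx2 upstream: ccagagaaatGAAAGTGAAActaagtagga
Ifit2 intron: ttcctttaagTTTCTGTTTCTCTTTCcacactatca
Past Rsad2: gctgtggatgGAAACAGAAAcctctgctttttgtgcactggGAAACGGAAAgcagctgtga
Between Rsad2 and Cmpk2: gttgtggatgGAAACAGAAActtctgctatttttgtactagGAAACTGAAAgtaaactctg

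The 61 bases past Rsad2 and the 61 bases between Rsad2 and Cmpk2 shared 46 of 61 positions without gaps (75.4%). The peaks that hold them begin 20720 bp apart and lie on opposite sides of Rsad2.

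All 10 genes had a start site peak, a property of 56.5% of 21938 protein-coding genes (12402 genes). The best summit at these start sites scored between 1048 for Isg15 and 1721 for Mx2, with a median of 1363. The score is the authors' value for each summit, and its scale is not stated. Among the 12402 coding genes with a start site peak, the median of the best score was 1456 (25th to 75th percentile 1071 to 1799). Of the 10 genes, 8 scored under this median, and Ifit3 and Mx2 scored above it. As a description of the range, 31.6% of these coding genes scored at least as high as Mx2, and 76.3% at least as high as Isg15.

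**Figure D1:**
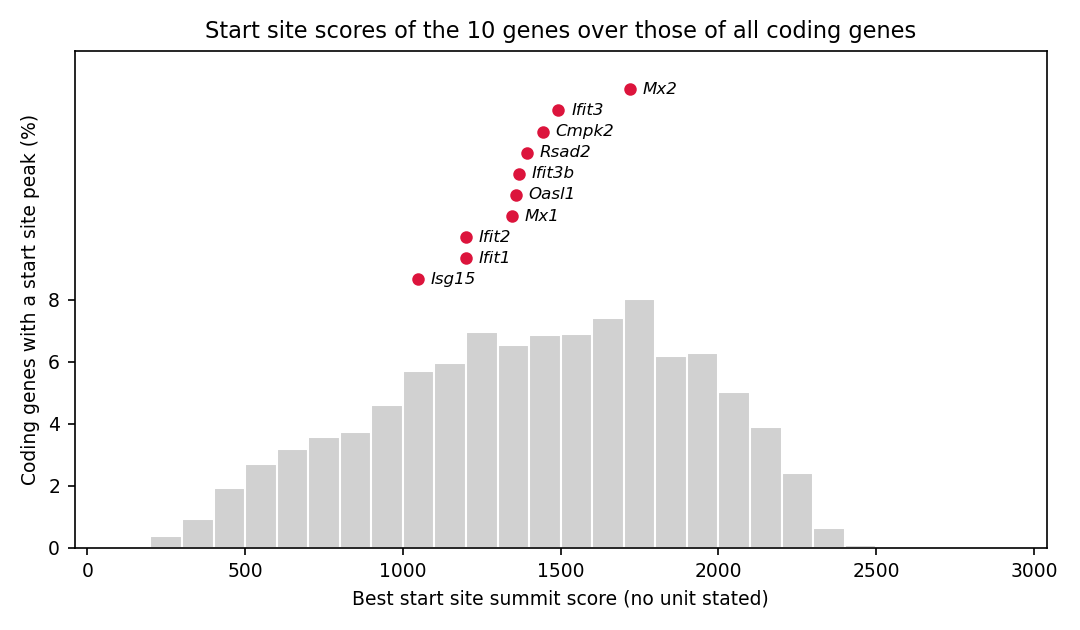
Best start site summit score of each of the 10 genes (red points, x axis, no unit stated; their height only separates the names) above the distribution of the same score over 12402 coding genes with a start site peak (grey bars, percent of genes per 100 score units). The 10 genes lie between 1048 and 1721, and the median of the coding genes is 1456.

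The 4 Ifit genes lie on the plus strand of chromosome 19 and encode proteins with tetratricopeptide repeats. At Ifit1 (chr19:34640871-34650009), the best summit scored 1200 and lay at -57 bp from the principal start, in a peak of 162 bp. At Ifit2 (chr19:34550694-34576419), the best summit also scored 1200, at -98 bp in a peak of 186 bp. Both peaks were narrower than the median of the list (227 bp), and that of Ifit2 ended before the start site.

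At Ifit3 (chr19:34583531-34588731), the best summit scored 1493 at -140 bp, and a further peak upstream scored 900. At Ifit3b (chr19:34607970-34613401), a close copy of Ifit3, the best summit scored 1369 at -173 bp, and the upstream peak scored 1013. The layout of both genes was the same, with 2 peaks before the start and none over it. The 800 bases before their start sites aligned with 88.4% identity, and the 250 bases before them with 70% and 86 gap columns. For all 4 summits the surrounding 76 bases, the length of a read, occurred more than once in the genome. A read of exactly these 76 bases fits more than a single place in the genome. Reads that reach past these bases, or that were trimmed shorter, were not examined. How far the scores of Ifit3 and Ifit3b are separate measurements was therefore not tested. The other 158 summits of the windows lay in 76 bases found once.

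Rsad2 and Cmpk2 are transcribed away from each other on chromosome 12. Rsad2 (chr12:26442746-26456452, minus strand), which encodes viperin, had a best summit of 1394 at -55 bp in a peak of 197 bp. Cmpk2 (chr12:26469204-26479837, plus strand), a mitochondrial nucleotide kinase, had a best summit of 1443 at 83 bp past the start, in a peak of 187 bp. Isg15 (chr4:156199424-156200818, minus strand) had a best summit of 1048 at -8 bp in a peak of 307 bp. It was the lowest of the 10 genes.

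The Mx genes lie on chromosome 16 and point away from each other. Mx1 (chr16:97447035-97462907, minus strand) had a best summit of 1345 at -70 bp in a peak of 185 bp. Mx2 (chr16:97535308-97560900, plus strand), which GENCODE M21 types as a polymorphic pseudogene, had 2 strong summits. The first, with a score of 1721, lay before the most upstream start at -932 bp from the principal start. The second, with a score of 1332, was in the peak over the principal start. The 250 bases before the principal starts of Mx1 and Mx2 aligned with 90.9% identity. Oasl1 (chr5:114923240-114937915, plus strand), which encodes a protein related to the oligoadenylate synthetases, also had 2 summits, with scores of 1357 at -1173 bp and 1224 at 39 bp.

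The next question was which of these start sites held the letters of an ISRE. An ISRE core was present within 100 bp of the best start site summit in 6 of 10 genes (Ifit1, Ifit3, Ifit3b, Rsad2, Isg15 and Mx2), beside 2.19% of the 12402 coding genes with a start site peak. The longer form GAAANNGAAACT was present at 4 of these summits (Ifit1, Ifit3, Ifit3b and Mx2), beside 0.411% of the coding genes. Ifit3 and Ifit3b are both counted, although the stretches with their cores were identical. Ifit2, Cmpk2, Mx1 and Oasl1 had no match at their best start site summit. When a spacer of 1 base was allowed as well as 2 bases, 8 of 10 genes had a match, beside 3.33% of the coding genes with a start site peak.

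In a fixed promoter from 250 bases before to 50 after the principal start, a core was found in 5 of 10 genes, beside 3.49% of all coding genes. Ifit1, Ifit3, Ifit3b and Isg15 had 2 or more cores there, a property of 0.283% of coding genes. The cores of Ifit1 began at -86 and -67, those of Isg15 at -78, -72 and -66, and that of Rsad2 at -120. The cores of Ifit3 began at -158 and -124 and those of Ifit3b at -201 and -167. The centre of the nearest core lay 5.5 bp from the best summit in Ifit1, 13.5 bp in Ifit3 and 10.5 bp in Ifit3b. It was farther away in Isg15 (53.5 bp) and Rsad2 (60.5 bp). The distance between the core and the start site thus varied among the genes by more than 100 bp.

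Other motifs were searched at the same start sites. The gamma-activated site, searched as TTCNNNGAA, was found in 0 of 10 promoters, beside 8.12% of coding promoters. The AP-1 site TGANTCA was found in 3 of 10 (Ifit3, Ifit3b and Rsad2), beside 6.75%, and the NF-kB consensus in 2 of 10 (Ifit2 and Oasl1), beside 5.05%. The AP-1 matches of Ifit3 and Ifit3b had the same letters, TGATTCA, and are not independent because these genes are close copies. The 3 NF-kB matches of Ifit2 overlapped each other downstream of the start. GGGCGG, the SP/KLF site of many housekeeping promoters, was found in 2 of 10 (Ifit2 and Mx2), beside 45% of coding promoters. The PU.1/ETS site GAGGAAGT and the composite GGAANNGAAA were found in 0 of 10 promoters, beside 3.12% and 2.68%. Within 100 bp of the best start site summit, the AP-1 site was present in 4 of 10 genes (Ifit3 and Ifit3b among them), beside 5.75% of coding genes with a start site peak. There GAGGAAGT was present in 1 (Oasl1), beside 3.97%, GGAANNGAAA in 1 (Cmpk2, 2 matches), beside 2.24%, and TTCNNNGAA in 0, beside 4.42%. At these summits the NF-kB consensus was present in 0, beside 4.11%, and GGGCGG in 2 (Ifit2 and Cmpk2), beside 59.6%. GGAANNGAAA differs from the ISRE core in 1 letter, so that both cannot match the same bases. TATAAA was absent 20 to 40 bases before all 10 starts, as in all but 2.34% of coding genes. No match says only that these letters were not in the window searched.

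Genes without a core at their best start site summit had one in another peak of the locus in several cases. In Ifit2, an intronic peak at chr19:34553556-34553768 (score 467) held 2 overlapping cores, and a peak over an exon at chr19:34570119-34570446 held 1. The latter scored 1345, above the start site summit of the gene. Near Mx1, a peak of 646 bp before the start (score 234) held 1 core. Between Rsad2 and Cmpk2, the peak at chr12:26460148-26460439 (score 1272) held 2 cores and that at chr12:26464431-26464728 (score 544) held 1. Another 2 cores were in the peak at chr12:26439428-26439584, past the end of Rsad2, whose score of 1188 was the highest of any peak past the end of the 10 genes. In the Oasl1 window the only peak with cores was at the start of the neighbouring Oasl2 (score 802, 2 cores).

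Over all windows, 17 of 136 reference peaks (12.5%) held an ISRE core within 100 bp of their best summit, beside 3.66% of all 82391 reference peaks. The share was 33.3% (8 of 24) for peaks at a start site of the 10 genes. Among the 91 window peaks over 1000 bp from any annotated start site it was 6.59% (6 peaks), beside 4.01% of all such peaks. These 6 distal peaks were in the Rsad2 locus (3), in Ifit2 (2) and between Mx1 and Fam3b (1, score 290).

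**Figure D2:**
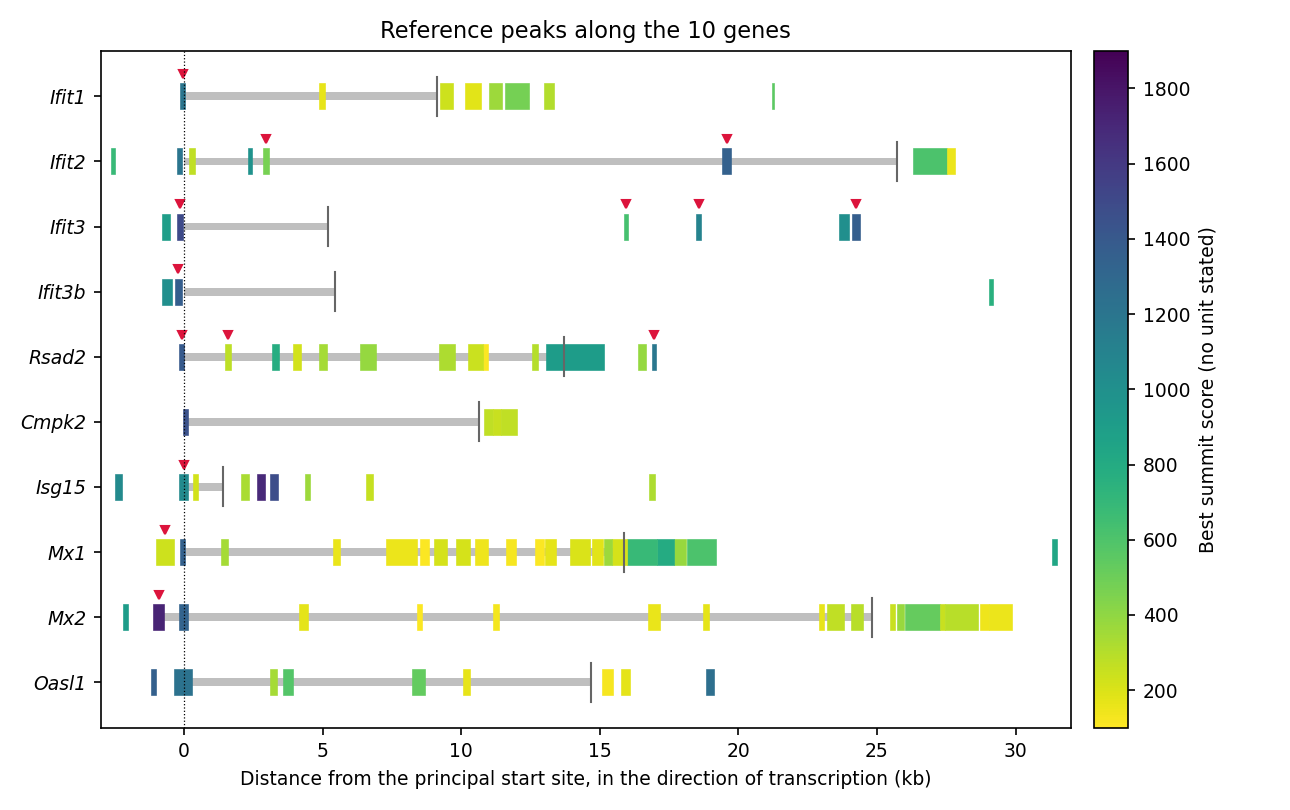
Reference peaks (boxes, to scale, coloured by best summit score, no unit stated) along the 10 genes, in kb from the principal start site in the direction of transcription. Grey bars are gene bodies, vertical ticks their annotated ends, and red triangles mark peaks with an ISRE core within 100 bp of the best summit; peaks of neighbouring genes are drawn as well. Yellow and green boxes of low score fill parts of Rsad2, Mx1 and Mx2 and the stretch past the end of Ifit1, Ifit2, Cmpk2, Mx1 and Mx2, whereas dark boxes sit at the start sites.

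The number of reference peaks per window ranged from 14 (Ifit1 and Ifit3) to 30 (Mx1), with a median of 18.5. Coding genes with a start site peak had a median of 10 (25th to 75th percentile 6 to 15). As many as 30 peaks occurred in 2.58% of these genes, as many as the 22 of Mx2 in 9.24%, and as many as the 20 of Ifit2, Rsad2 and Cmpk2 in 12.5%. Counted as extended regions, which join neighbouring peaks, the 10 genes had a median of 10 and the coding genes 7. The step from peaks to regions lowered the count of Mx1 from 30 to 10, as most of its peaks were close to each other.

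Of the 136 window peaks, 59 lay inside the genes or past their ends, and these were mostly wide and low in score. Among them, 33 (24.3% of the window peaks) were inside 1 of the 10 genes and over 1000 bp from any annotated start, with a median score of 219 and a median width of 328 bp. A further 26 peaks (19.1%) lay within 5 kb past an annotated gene end, with a median score of 298 and a median width of 410 bp. For coding genes with a start site peak, the corresponding peaks had median scores of 675 and 654 and median widths of 220 and 222 bp. The 24 peaks at start sites of the 10 genes had a median score of 1030.5 and a median width of 270 bp. Scores under the median of all summits (737) were found for 29 of 33 peaks inside the genes and for 24 of 26 past the ends.

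The widest peaks of the windows were all of this kind. Of the 136 peaks, 7 (5.15%) were 1000 bp or wider, beside 0.177% of all reference peaks. These 7 lay inside 1 of the 10 genes or past its end. The widest, 2080 bp with 5 summits and a score of 911, spanned the end of Rsad2 (chr12:26441302-26443381). In the whole list, 6 peaks were at least as wide. A neighbouring peak was touched without a gap by 11 of 26 peaks past the ends and 5 of 33 inside the genes. None of the other 77 window peaks did so, beside 2.05% of all reference peaks. Where peaks touch, their number depends on where the authors set the borders.

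**Figure D3:**
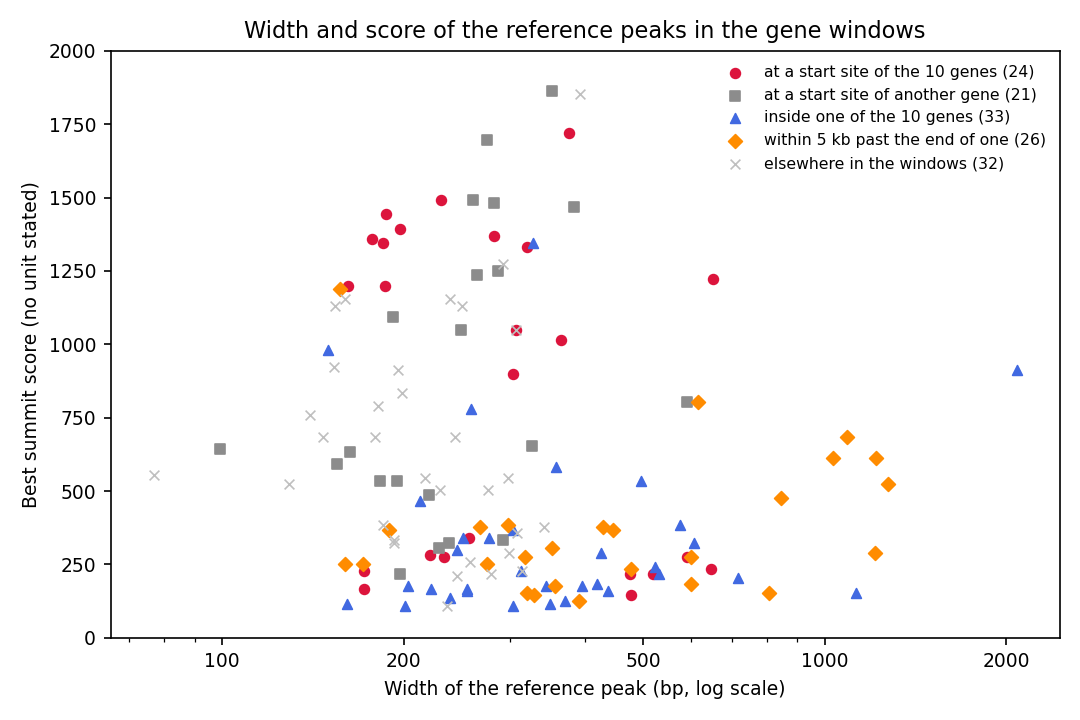
Width (x axis, bp, log scale) and best summit score (y axis, no unit stated) of the 136 reference peaks in the windows, by position; numbers of peaks are in the key. Peaks inside the genes (blue) and past their ends (orange) reach widths over 1000 bp and mostly stay under a score of 700, while start site peaks (red) reach scores over 1000 at widths of 162 to 652 bp.

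The genes differed in where these peaks lay. Mx1 had 10 peaks inside the gene (scores 108 to 367) and 5 past its end (219 to 802), which reached 3307 bp downstream, with a peak of score 219 over the gene end counted in both. Reference peaks covered 40.7% of the gene, and 0.669% of coding genes with a start site peak had as much. Most of the Mx1 peaks were in the part of the gene near its end. Because Mx1 has 7 annotated start sites, 4 more weak peaks inside it were counted as start site peaks.

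Mx2 had 6 peaks inside the gene (scores 114 to 290) and 7 past its end (147 to 524), which began 652 bp downstream and reached 5036 bp. They covered 83.6% of the 5 kb past the end, and 0.0161% of coding genes with a start site peak had as much. The last 2 of these peaks had their best summit in exons of Tmprss2, which is transcribed towards Mx2. Rsad2 had 9 peaks inside the gene (108 to 911) and 3 past its end (384 to 1188), with the peak over the gene end counted in both. All reference peaks, those near its starts included, covered 28.2% of the gene and 38% of the 5 kb past it.

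Ifit1 and Cmpk2 showed such peaks almost only past the end. Ifit1 had 1 peak inside the gene (score 167) and 5 past its end (182 to 476), from 96 to 4212 bp downstream. The latter covered 54.4% of the 5 kb past the end, and 0.113% of coding genes with a start site peak had as much. Cmpk2 had 0 peaks inside the gene and 3 past its end (250 to 274), which touched each other between 197 and 1389 bp downstream. Ifit2 had 2 past its end (154 and 613, together 1536 bp). Its 3 peaks inside the gene, with scores of 467 to 1345 and widths of 150 to 328 bp, were not of the wide and low kind. Oasl1 had 4 inside (167 to 583) and 2 past its end (127 and 175).

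Isg15, Ifit3 and Ifit3b lacked this layout. Isg15 had 1 peak past its end over 1000 bp from any start (score 367), in an intron of Agrn. Ifit3 and Ifit3b had 0 peaks inside the gene and 0 within 5 kb past their ends. Their gene bodies of 5201 and 5432 bp were the shortest after that of Isg15.

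In total, 8 of 10 genes had 1 or more peaks past the gene end, and 5 of 10 had 3 or more (Ifit1, Rsad2, Cmpk2, Mx1 and Mx2). Of the 12402 coding genes with a start site peak, 22.8% and 2.09% did, respectively. Touching peaks were counted separately throughout, among them the 3 of Cmpk2, and no count of joined peaks was made. With only peaks at or above the median score of the list, 0 of 10 genes had 3 or more, beside 0.395% of these coding genes, so the count rests on peaks of low score. The 10 genes had a median of 27.3% of the 5 kb past the end in peaks, and the coding genes a median of 0%. The property was singled out after the positions of the peaks had been seen. Of the 82 summits inside the genes and past the ends, 0 lay in 76 bases that occurred more than once. Over 50% of the bases within 100 bp of the best summit were repeat-masked in 6 of the 59 peaks, among them 2 past Ifit1 (51.2% and 92.5%) and 2 past Oasl1 (51.2% and 100%). The part of repeats in the result was not tested.

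**Figure D4:**
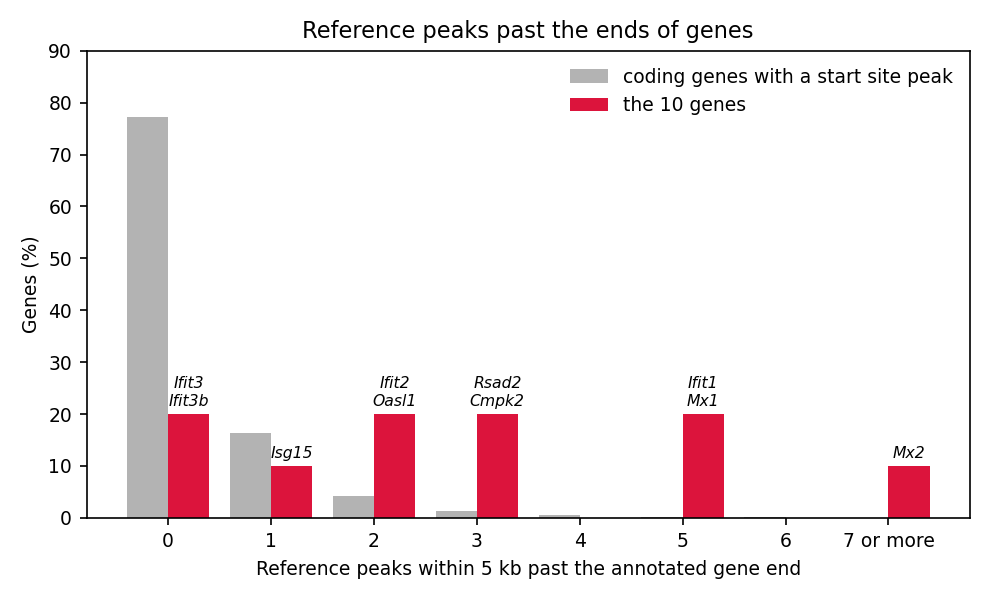
Share of genes (y axis, percent) by the number of reference peaks within 5 kb past the annotated gene end and over 1000 bp from any start site (x axis), for 12402 coding genes with a start site peak (grey) and the 10 genes (red, named). Of the coding genes 77.2% have 0 such peaks and 2.09% have 3 or more, compared with 2 and 5 of the 10 genes; with peaks at or above the median score, 0 of the 10 genes have 3 or more.

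The best scored peak of each locus was not always at 1 of the 10 genes. In the Ifit locus it was at the start of Lipa, a lysosomal lipase gene before Ifit2 (chr19:34527353-34527705, score 1864). In the Isg15 locus it lay before Agrn (chr4:156197901-156198175, score 1696), which starts past the end of Isg15. In the other 3 loci it was at Mx2 (1721), Cmpk2 (1443) and Oasl1 (1357). The nearest coding genes on both sides were Lipa and Slc16a12 for the Ifit locus, Rnf144a and Sox11 for Rsad2 and Cmpk2, and Agrn and AW011738 for Isg15. They were Bace2 and Tmprss2 for the Mx genes, with Fam3b between these, and Oasl2 and 2210016L21Rik for Oasl1.

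One start site was shared. The peak at Ifit1 also served as the start site peak of Ifit1bl2, which begins 128 bp away on the opposite strand. Both genes therefore had the same score of 1200 and the same pair of cores. Ifit1bl1, a further Ifit-like gene in the cluster, had a start site summit of 1094 with 1 core. A second peak inside Ifit1bl1 (score 634), beginning 2600 bp away, held a stretch of 30 bases around its core that matched in 29 positions.

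The genes that produce and transmit the interferon signal were compared as a list. All 12 had a start site peak (median best score 1690.5), beside 56.5% of coding genes. The lowest was Ifnb1, which encodes interferon beta, with 685, and the highest was Tyk2 with 2140. Irf7, which amplifies the response, scored 1224, and Stat2 scored 1890. An ISRE core was found in 0 of 12 at the best start site summit and in 0 of 12 promoters, beside 2.19% and 3.49% of coding genes, so that these counts were near the background. Ticam1, which encodes the adaptor TRIF, had 4 peaks past its end, and no other gene of this list had 3 or more.

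Of 26 other interferon-stimulated genes, 25 had a start site peak, beside 56.5% of coding genes. Their median best score of 1381 lay close to the 1363 of the 10 genes. The exception was Ifi44, whose most upstream start was 7392 bp from the nearest peak. A core at the best start site summit was present in 19 of 26, beside 2.19% of coding genes with a start site peak, among them Oas1a, Oas2, Oas3, Eif2ak2, Bst2, Zbp1 and Usp18. Genes with a peak but no core there were Dhx58, Ifi35, Xaf1, Herc6, Samhd1 and Adar. Peaks past the gene end were found in 10 of 26, and 0 of 26 had 3 or more, beside 22.8% and 2.09% of coding genes with a start site peak. At this background a count of 0 is no result about the list. Of the 8 macrophage markers, beside the same shares, 6 had such a peak and 1 had 3 (Csf1r), with a median of 8.41% of the 5 kb past the end in peaks. Rnf213, an E3 ubiquitin ligase gene, had the highest coverage past the end among the 26 (46.8%), and their median was 1.54%. Oasl2, Ifit1bl1 and Ifit1bl2 share windows with the 10 genes and are not independent of them.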

How the data were processed

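ATAC-seq libraries of BMDMs (9 groups, 2 libraries each) had been trimmed by the authors (Trimmomatic 0.39), mapped to mm10, filtered (SAMtools 1.9) and used for peak calling (MACS2 2.2.6) with duplicates kept. The paper describes a reference set of peaks that passed a q-value limit and overlapped between replicates. The authors deposited 3 BED lists pooled over all libraries, with positions and, for summits, a score of unstated scale. No column belonged to a single library and 0 columns to other samples, so depth, precision and replicates could not be assessed, and no test was made. Positions were converted to start at 1. Genes came from GENCODE M21 and sequence from GRCm38.p6, whose primary chromosomes are those of mm10. Overlap of 1 base counted. Distances to a start are 0 at the start base and negative before it. Motifs were searched on both strands with Python 3.11.15 scripts, which were tested on simulated data. Identities come from global alignments with Biopython 1.88 (match 1, mismatch -1, gap opening -3, extension -0.5). Alternatives comprised other windows, motif forms, region types and a score minimum. The genes, gene lists and motifs were chosen with earlier results of these data known. All 10 genes, list genes that went against their list, neighbours sharing a region and the best peak of each locus are named. Other genes and peaks were named after their values were seen. For 1 gene of the signalling list no separate value is given, and list totals include it.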

Additional observations from a re-analysis of the deposited data

How the results depend on the processing

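Of 39 alternatives for 8 results, 26 kept the value within 1.5 times. The median number of reference peaks per window (18.5) was 10.5 with 20000 bp, 29 with 100000 bp, 10 as extended regions, 6 with peaks at or above the median score and 3 in the gene body. The number of genes with an ISRE core in the promoter (5) was 8 from 1000 bases before to 100 after the start (14% of coding genes) and 3 with the longer motif (0.356%). The number of peaks over all windows (136) was 70 as extended regions and 42 at or above the median score. The share of them with a core (12.5%) was 5.88% with the longer motif (0.493% of all peaks) and 6.59% over 1000 bp from start sites (4.01%). The number of genes with 3 or more peaks past the end (5) was 8 for at least 1 peak and 0 with peaks at or above the median score, where 0.395% of coding genes with a start site peak had 3 or more. It was 4 within 2000 bp and 5 within 10000 bp, beside 0.629% and 5.4% of these coding genes. The alternatives for peaks past the end were chosen after seeing the data. The counts of genes with a start site peak (10 of 10 throughout) and with a core at the best summit (4 to 8) and the median start site score (1032.2 to 1363) stayed within this range.

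No paired analysis was possible because the lists have no column per library. The lists are pooled over stimuli and times, so a peak cannot be assigned to a group, and a missing peak can be a region under the authors' threshold. The score has no stated scale, and duplicates kept by the authors can raise it.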
